A study of Mus musculus with 14 samples.

Results

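The genes described here are 33 of the 35976 genes counted in cochlear supporting cells (SCs), chosen by name as enzymes of cholesterol and fatty acid synthesis with the regulators of both. They comprised 6 enzymes of the mevalonate part of the pathway, 11 enzymes from squalene to cholesterol, 5 regulators (Srebf1, Srebf2, Scap, Insig1 and Insig2), 1 sterol transfer protein (Stard4), 4 enzymes that make palmitate or its precursors, and 6 elongases and desaturases. The rule for membership used gene names and no measured value, although results of these data were known when the pathway was picked. All 33 were found in the counts of both ages and all 33 passed the filter on low counts at both ages.

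RNA was sequenced from cells sorted for EGFP from cochlear explants of Lfng-EGFP mice, after 24 hours with 2 μM compound E (CompE) dissolved in DMSO or with the same volume of DMSO alone. Compound E inhibits γ-secretase, the protease that releases the intracellular domain of Notch. The 14 libraries were 4 CompE and 4 DMSO libraries at P0 and 3 CompE and 3 DMSO libraries at P6, all of the Lfng-EGFP genotype, and organs were pooled for each sort. The labels give the younger age as P0, and the culture protocol as P0-P1. The reporter is a bacterial artificial chromosome that carries EGFP under the control of Lfng, itself a gene that responds to Notch, so the sorted population was defined by a gene that the treatment can change. The medium of both treatments held fetal bovine serum, a source of lipids. Whether more or fewer cells of a type, or more or less RNA per cell, lay behind a level in these pooled cells cannot be told apart.

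Cholesterol is built from acetyl-CoA through mevalonate, isoprenoids, squalene and a series of sterols. The rate is set largely by SREBP-2, the product of Srebf2, a transcription factor held in the endoplasmic reticulum by the sterol-sensing protein SCAP and the INSIG proteins until sterols run low. SREBP-1, the product of Srebf1, acts mostly on fatty acid synthesis, which runs from citrate through acetyl-CoA and malonyl-CoA to palmitate, and on the stearoyl-CoA desaturases that put the single double bond into oleate. Cholesterol and oleate are major lipids of cell membranes and of myelin.

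Total counts were 19415066 to 44430063 per library at P0 and 23972228 to 41207627 at P6, and 15917 to 22544 genes were detected per library. P0 libraries came from batches 1 to 3 and P6 libraries from batches 4 to 6, so age and batch cannot be told apart. Replicate numbers were shared within a batch by the CompE and the DMSO library. The summed level of 6 Notch targets (Hes1, Hes5, Hey1, Hey2, Heyl and Nrarp) was 1983 to 2822 reads per 1000000 counted reads (RPM) in the P0 DMSO libraries and 314 to 580 RPM in the P0 CompE libraries, with no overlap. At P6 the sums were 515 to 912 RPM with DMSO and 295 to 426 RPM with CompE. SC markers, 8 in number, summed to at least 4417 RPM in every library, and the 4 adipocyte markers to at most 0.576 RPM. The 2 libraries of P6 replicate 3 stood apart, with 3256 and 3976 RPM of 6 mesenchymal markers against 884 to 2459 RPM in the other P6 libraries, and 86.7 and 30.2 RPM of 5 macrophage markers against 2.63 to 15.5 RPM. These 2 libraries were also highest for hair cell (HC) markers, at 365 and 395 RPM against 108 to 147 RPM. Neuronal markers were at 96.2 and 109 RPM against 20.4 to 38.0 RPM, and endothelial markers at 44.3 and 39.4 RPM against 1.07 to 13.2 RPM. Glial markers were at 504 and 499 RPM against 380 to 436 RPM. SC markers were lowest there, at 4417 and 5785 RPM against 6390 to 9121 RPM. P6 results are therefore given with and without replicate 3.

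The genes spanned a wide range of abundance in the DMSO libraries when counts were divided by library total and by exon length (reads per kilobase of exon and per 1000000 counted reads, RPKM). Scd2, the stearoyl-CoA desaturase that predominates in neonatal brain and nerve, was the most abundant at both ages, with 598 ± 75.4 RPKM at P0 (SD, n = 4) and 561 ± 111 RPKM at P6 (SD, n = 3). Acly, which cleaves citrate to acetyl-CoA, followed at P0 with 71.7 ± 8.93 RPKM, and Srebf1, at 38.6 ± 7.63 RPKM, Elovl5, at 32.0 ± 2.40 RPKM, and Hmgcs1, at 30.2 ± 2.31 RPKM, came next. Over the 4 libraries the ranges of Srebf1 and Elovl5 overlapped, and so did those of Elovl5 and Hmgcs1. Hmgcs1, the synthase that commits acetyl-CoA to mevalonate, was the most abundant mevalonate enzyme at both ages. Sqle, the rate-limiting epoxidase of squalene, had the highest mean of the sterol enzymes at P0, with 23.9 ± 3.46 RPKM, in a range that overlapped that of Cyp51, the next of them, with 20.5 ± 1.66 RPKM. At the low end were Idi1, an isomerase of isoprenoid units, with 0.701 ± 0.152 RPKM, and Acacb, the acetyl-CoA carboxylase of mitochondria, with 0.419 ± 0.0791 RPKM. Scd1, the close paralog of Scd2, ranked 11th of 33 at P0, with 18.9 ± 7.18 RPKM, and 2nd at P6, with 159 ± 53.8 RPKM.

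**Figure D1:**
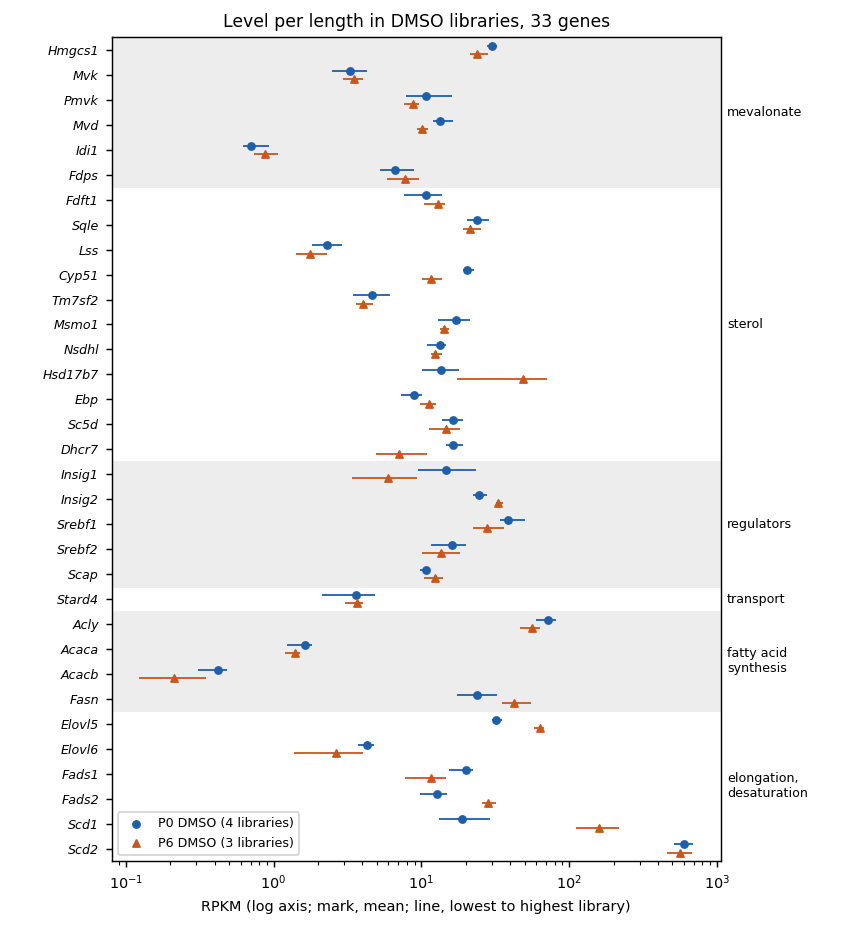
Level per length of the 33 genes in DMSO libraries on a log axis, with the mean as a mark and the lowest to highest library as a line (P0 n = 4, P6 n = 3). Scd2 lies at the far right at both ages, while Scd1 and Hsd17b7 shift to the right at P6.

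The comparison of compound E with DMSO at P0 asks which of these genes differ in the sorted cells after 24 hours with the γ-secretase inhibitor. A single gene of the 33, Scd1, was called, which here means 2-fold or more with an adjusted p no greater than 0.01 (edgeR's quasi-likelihood test with Benjamini-Hochberg adjustment over all genes tested). Over all 15937 genes tested, 1.22% were called and 0.238% were called higher. In log2 fold change 9 of the 33 were above 0, where 51.1% of all genes were, and their median was −0.093 against 0.007 for all genes. Here and below, a positive log2 fold change means higher with CompE. The range without Scd1 ran from −0.60 in Srebf1 to 0.33 in Fdft1, the squalene synthase, of whose 4227 exon bases 774 overlap Ctsb on the other strand. The pathway as listed therefore contributed 1 call upward and none downward. With 0.05 as the limit on adjusted p and any fold allowed, Srebf1 was added, making 2 of 33 where 3.87% of all genes passed.

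Scd1 encodes a stearoyl-CoA desaturase that makes oleate and palmitoleate and is a standard target of SREBP-1 and of the liver X receptors. Its level in the P0 CompE libraries was 529, 494, 545 and 470 RPM in replicates 1 to 4, and in the DMSO libraries 78.4, 82.6, 144 and 64.6 RPM. The groups did not overlap, and the lowest CompE library held more than 3 times the highest DMSO library. Scd1 rose by a log2 fold change of 2.42 (SE 0.243, adjusted p = 0.000667), a ratio of mean RPM of 5.52, and an exact two-sided permutation test of RPM gave p = 0.0286, the smallest that 4 against 4 allows. With the replicate number as a block it was 2.49 (SE 0.167, adjusted p = 0.000129). The call was lost without both libraries of replicate 2 (2.38, adjusted p = 0.0118) or of replicate 4 (2.31, adjusted p = 0.0170). Over all genes 195 were called with every library, 69 without both libraries of replicate 2 and 1 without both of replicate 4. The gene lies on the minus strand at chr19:44394455-44407879 (GRCm38) and shares no exon base with another annotated gene.

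Sums over the marker lists of SCs and of other cells moved in the same P0 comparison. The 8 SC markers were Lfng, Sox2, Prox1, Fgfr3, Jag1, Cdkn1b, Gjb2 and Gjb6. They summed to 6748 to 11284 RPM with DMSO and to 5842 to 6190 RPM with CompE, which did not overlap. In log2 fold change 7 of the 8 were below 0. Lfng, which itself responds to Notch, was at 1144 to 3677 RPM with DMSO and 756 to 1139 RPM with CompE. Jag1 was at 1233 to 2839 RPM and 793 to 970 RPM. Fgfr3 overlapped, at 1231 to 1881 RPM and 1582 to 1864 RPM. The 6 mesenchymal markers summed to 916 to 1090 RPM with DMSO and 1190 to 1342 RPM with CompE, also without overlap. Only Lum was above 0 in log2 fold change, at 711 to 845 RPM with DMSO and 941 to 1139 RPM with CompE. The other 5 mesenchymal markers were below 0, and the median of the 6 was −0.348. Glial markers overlapped, at 369 to 562 RPM with DMSO and 536 to 782 RPM with CompE, with Pmp2 at 0 in every library, and so did the 6 HC markers, at 188 to 553 RPM and 374 to 1188 RPM. Within pairs the HC sum was higher with CompE in each of the 4. Without the replicate block none of the 8 SC and 6 HC markers was called. With the block 2.2% of all genes were called. Among them the HC genes Atoh1 (1.94, adjusted p = 0.000122) and Pou4f3 (1.13, adjusted p = 0.00606) were higher, and the SC genes Lfng and Jag1 were lower. The 4 adipocyte markers stayed at or below 0.454 RPM in both groups. The part of these shifts in the Scd1 result was not tested.

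Scd2 did not follow its paralog. Its level with CompE at P0 was 2745, 4136, 3393 and 3544 RPM and with DMSO 2800, 3122, 3773 and 3384 RPM. The CompE range enclosed the DMSO range, and the log2 fold change was 0.04 (SE 0.181, adjusted p = 0.964). Leaving out a library or pair of libraries moved it between −0.082 and 0.156, so no direction can be given. Scd2 is transcribed from the plus strand at chr19:44293674-44306864, within the same chromosomal neighborhood as Scd1. The counts of such paralogs could share reads, since how reads matching more than 1 gene were assigned is not given in the sources used here.

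**Figure D2:**
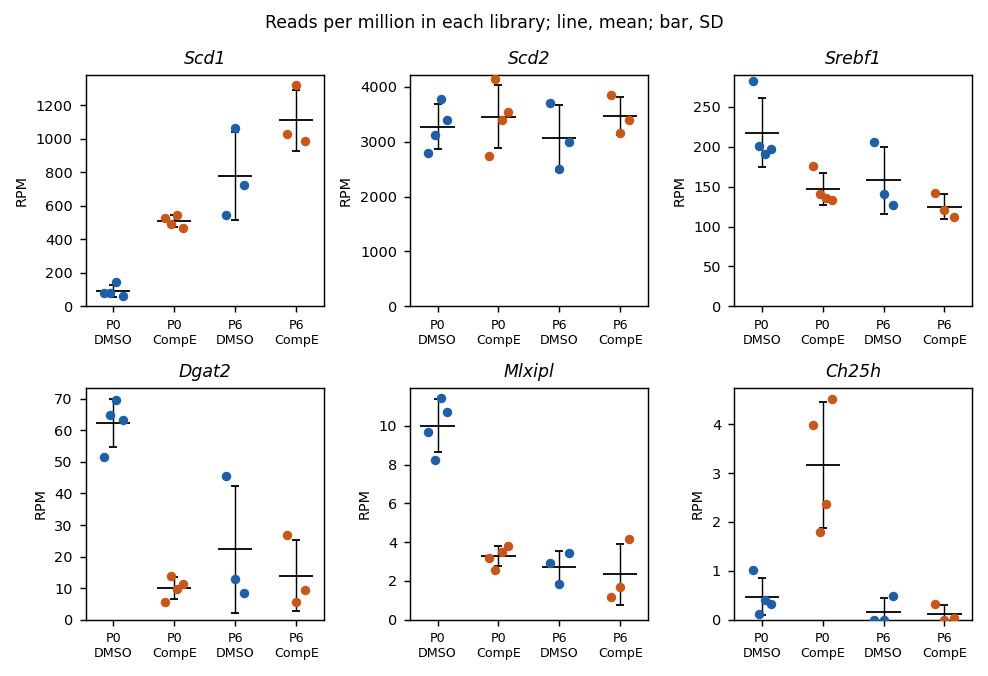
RPM of Scd1, Scd2, Srebf1, Dgat2, Mlxipl and Ch25h in each library by group (blue DMSO, orange CompE), with the mean as a line and the SD as a bar (P0 n = 4, P6 n = 3). Scd1 with CompE at P0 lies between 470 and 545 RPM, above all 4 DMSO libraries, while the Scd2 groups overlap at both ages.

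Among the regulators, Srebf1 was lower with compound E in each of the 4 P0 pairs and each of the 3 P6 pairs. Its P0 level was 176, 141, 136 and 133 RPM with CompE and 282, 200, 191 and 197 RPM with DMSO, without overlap. The log2 fold change was −0.60 (SE 0.126, adjusted p = 0.0273), which did not meet either threshold, and −0.60 with the replicate block (SE 0.0829, adjusted p = 0.00406). The exact two-sided permutation test of RPM gave p = 0.0286, the smallest possible. Without any single library or pair its log2 fold change ran from −0.675 to −0.498. Of its 5634 exon bases, 109 overlap Rai1 on the other strand, and 66 overlap the microRNA gene Mir6922. In each of these 4 CompE libraries Scd1, a known SREBP-1 target, was above its DMSO level and Srebf1 below.

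Srebf2 gave 108, 85.0, 116 and 110 RPM with CompE and 83.0, 111, 130 and 143 RPM with DMSO at P0, ranges that overlapped, with a log2 fold change of −0.21 (SE 0.184, adjusted p = 0.749). Insig1, a brake on SREBP processing and itself an SREBP target, gave 49.4, 39.5, 45.0 and 51.5 RPM with CompE, all within the DMSO values of 72.9, 29.4, 39.2 and 39.8 RPM. Its log2 fold change was 0.01 (SE 0.217, adjusted p = 0.994). Insig2 was at −0.12 (SE 0.102) and Scap at 0.02 (SE 0.0988). The sterol transfer protein gene Stard4 was at 0.09 (SE 0.335).

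No mevalonate or sterol enzyme was called at P0. Of the 6 mevalonate enzymes 1 was above 0, with a range of −0.18 to 0.09 on the log2 scale, and of the 11 sterol enzymes 3 were, with a median of −0.125. Hmgcs1 had 134, 146, 122 and 132 RPM with CompE and 150, 131, 128 and 145 RPM in the DMSO libraries. Its log2 fold change was −0.09 (SE 0.101, adjusted p = 0.823), and 557 of its 4594 exon bases overlap a gene on the other strand. Sqle had 143, 141, 134 and 137 RPM with CompE and 158, 113, 126 and 133 RPM with DMSO, a difference of 0.03 (SE 0.101, adjusted p = 0.946). The CompE libraries sat inside the DMSO range for Sqle, and the ranges overlapped for Hmgcs1. The sterol enzyme farthest from 0 was Nsdhl, a dehydrogenase that helps remove the C4 methyl groups of sterols, at −0.42 (SE 0.119, adjusted p = 0.0966). With the replicate block Nsdhl reached an adjusted p of 0.0436, below 2-fold, where 7.5% of all genes passed 0.05.

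The palmitate enzymes Acly, Acaca, Acacb and Fasn were all slightly below 0 at P0, between −0.09 and −0.02 on the log2 scale, and none passed a test. Fasn, the synthase that assembles palmitate, varied widely within each group, with 329, 214, 229 and 241 RPM with CompE and 191, 354, 220 and 273 RPM with DMSO. Its log2 fold change was −0.09 (SE 0.209, adjusted p = 0.927), and it turned to 0.116 without DMSO replicate 2 and to 0.172 without both libraries of replicate 2. Of the remaining elongases and desaturases, Elovl5, which lengthens polyunsaturated fatty acids, was at 94.4, 102, 98.0 and 84.4 RPM with CompE and 125, 110, 105 and 111 RPM with DMSO. These groups did not overlap, but the change of −0.29 (SE 0.0992) had an adjusted p of 0.201. Counting by overlap alone, Scd1 lay wholly above and Srebf1 and Elovl5 wholly below, 3 of 33 or 9.09%, where 9.88% of all genes tested did not overlap.

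Compared pair by pair, the genes did not shift as a block at P0. Within pairs 1 to 4, 10, 20, 13 and 13 of the 33 were higher with CompE, with median log2 ratios of −0.117, 0.076, −0.103 and −0.077. In the same pairs 53.5% to 58.1% of all tested genes were higher. Pair 1 and pair 2 went opposite ways in their groups. In pair 1 the sterol enzymes had a median ratio of −0.18 and the palmitate enzymes one of 0.63, and in pair 2 the medians were 0.23 and −0.515. Fasn itself was at 0.784 in pair 1 and −0.724 in pair 2. Scd1 was the only gene of the 33 beyond 2-fold in any P0 pair, where 8.39% to 12.6% of all tested genes were beyond it in each pair, and its log2 ratios were 2.75, 2.58, 1.92 and 2.86. Higher in all 4 pairs were Fdft1 and Scd1, and lower in all 4 were Nsdhl, Srebf1, Elovl5 and Fads1, 2 and 4 of 33, where 17.4% and 11.7% of all tested genes were.

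**Figure D3:**
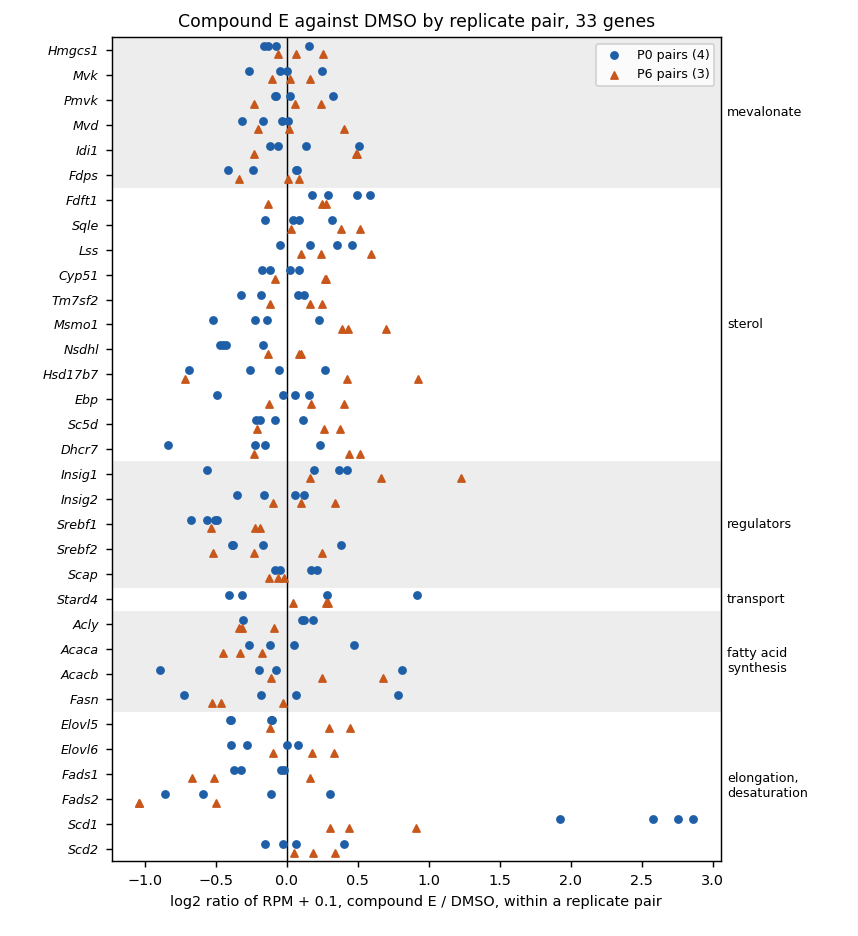
Log2 ratio of compound E to DMSO (RPM + 0.1) in each replicate pair for the 33 genes, with P0 pairs as blue circles and P6 pairs as orange triangles. The 4 P0 ratios of Scd1 lie between 1.92 and 2.86, above every other ratio plotted, and Srebf1 is below 0 in each of the 7 pairs.

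At P6 none of the 33 genes was called, with or without the replicate block, and 0.0% of the 15322 genes tested was called in either fit. At an unadjusted p under 0.05 edgeR gave 289 of all genes, or 1.89%, and 2 of the 33, Msmo1 and Fads2. DESeq2 called 13 genes in all, or 0.0545%, and none of the 33. In log2 fold change 24 of the 33 were above 0, where 50.2% of all genes were, with a median of 0.132 against 0.001 for all genes, and without replicate 3 it was 22 of 33 with a median of 0.065. All 11 sterol enzymes were above 0, from 0.03 to 0.52, against 3 of 11 at P0, but without replicate 3 it was 9 of 11, with Nsdhl at −0.01 and Hsd17b7 at −0.19. The palmitate enzymes had a median of −0.272. In the same P6 pairs the sum of the SC markers was lower with CompE in all 3, at 6390, 6413 and 4417 RPM against 9121, 8819 and 5785 RPM. All 8 SC markers were below 0 in log2 fold change. Among them, Lfng was at 1238, 1002 and 482 RPM with CompE and 2624, 2221 and 1209 RPM with DMSO. The macrophage markers were higher in all 3, at 15.5, 8.85 and 86.7 RPM against 7.68, 2.63 and 30.2 RPM, and of them Cd68 and Adgre1 had an unadjusted p under 0.05 with the replicate block. The part of these shifts in the P6 values was not tested.

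Msmo1, the oxidase that starts removal of the sterol C4 methyl groups, was at 134, 124 and 113 RPM with CompE and 82.1, 95.0 and 83.6 RPM with DMSO, without overlap. Its log2 fold change was 0.52 (SE 0.151, adjusted p = 1.00), and 0.55 without replicate 3. Sqle, at 144, 153 and 142 RPM against 141, 107 and 109 RPM, did not overlap in RPM either, by 141.9 against 141.5 RPM. Its change was 0.31 (SE 0.158, adjusted p = 1.00). Fads2, the Δ6 desaturase of polyunsaturated fatty acid synthesis, lay the other way. Its level was 51.3, 41.5 and 62.6 RPM with CompE and 106, 85.3 and 88.3 RPM with DMSO, a difference of −0.84 (SE 0.174, adjusted p = 1.00), and −1.03 without replicate 3. These 3 genes were the ones of 33 whose P6 groups did not overlap in RPM, 9.09% where 7.19% of all tested genes did not. Exact two-sided permutation tests gave p = 0.1 for Sqle and for Fads2, the smallest that 3 against 3 allows.

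With the replicate block the P6 fit gave 8 of the 33 an unadjusted p under 0.05, where 7.23% of all genes had one, but none an adjusted p of at most 0.05. Higher were Msmo1 (0.52), Sqle (0.32), Insig1 (0.69) and Scd1 (0.56), and lower were Fads2 (−0.85), Fasn (−0.33), Srebf1 (−0.30) and Acly (−0.24), all in log2 fold change. The lowest adjusted p among them was 0.365, for Fads2. Without replicate 3 this fell to 4 of 33, with Msmo1, Scd1, Fads1 and Fads2 remaining or entering. Pair by pair, 17, 19 and 23 of the 33 were higher with CompE, with median log2 ratios of 0.029, 0.087 and 0.163. In the same pairs 51.6%, 47.2% and 47.3% of all tested genes were higher. Sqle, Lss, Msmo1, Insig1, Stard4, Scd1 and Scd2 were higher in all 3 pairs, and Srebf1, Scap, Acly, Acaca, Fasn and Fads2 lower in all 3. These were 7 and 6 of 33, where 15.8% and 17.4% of all tested genes were.

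For the remaining genes given in full at P6, the treatment groups overlapped. Scd1 was at 1027, 1319 and 984 RPM with CompE and 547, 1065 and 726 RPM with DMSO, with a log2 fold change of 0.52 (SE 0.287, adjusted p = 1.00), and 0.55 without replicate 3. The DMSO library of replicate 2 was above 2 of the CompE libraries. Srebf1 was at 142, 121 and 111 RPM against 205, 141 and 127 RPM, and Insig1 at 32.3, 24.6 and 25.5 RPM against 28.8, 10.5 and 16.1 RPM. Srebf2 was at 92.2, 62.3 and 106 RPM with CompE and 132, 73.0 and 88.9 RPM with DMSO. Hmgcs1 was at 125, 106 and 117 RPM with CompE and 130, 101 and 97.8 RPM with DMSO. Fasn was at 419, 381 and 293 RPM with CompE and 605, 388 and 405 RPM with DMSO, and was lower in each pair. Scd2 was at 3839, 3162 and 3400 RPM against 3707, 2500 and 2990 RPM.

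The difference between the ages in the response was tested directly over all 14 libraries. None of the 33 genes was called, and 0.0% of 17090 genes was. Scd1 had the largest difference, −1.88 on the log2 scale (SE 0.399, adjusted p = 0.255), the response being smaller at P6. With the replicate block the difference was −1.92 (SE 0.247, adjusted p = 0.0165), which did not reach 0.01. In that fit 0.0936% of all genes were called and 0.492% passed 0.05, Scd1 alone among the 33. DESeq2 did call it (−1.89, adjusted p = 0.0025), as it did 0.123% of all genes, and no other of the 33. Without P6 replicate 3 it was −1.87 (SE 0.469, adjusted p = 0.270). Msmo1 was next by p, at 0.74 (SE 0.195, adjusted p = 0.484). In all, 25 of the 33 differences were above 0, where 51.8% of all genes were, with a median of 0.238, and without P6 replicate 3 it was 24 with a median of 0.152. All 6 mevalonate enzymes and 10 of the 11 sterol enzymes were above 0, and 3 of the 4 palmitate enzymes below.

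The comparison of P6 with P0 in the DMSO libraries describes the pathway in the absence of the inhibitor. Positive values mean higher at P6. It uses the same P0 DMSO libraries as the P0 treatment comparison, so a low level there enters both. In DMSO, 4 of the 33 genes were called, all higher at P6, where 7.12% of all genes tested were called and 3.74% were called higher. They were Scd1, Hsd17b7, Elovl5 and Fads2, 3 of them desaturases or elongases. In the CompE libraries 3 were called, also all higher, where 6.43% were called and 3.54% called higher. They were Hsd17b7, Elovl5 and Scd1. With 0.05 as the limit and any fold allowed, 9 and 10 of the 33 passed, where 22.5% and 22.0% of all genes did. The median change of the 33 was −0.077 in DMSO and 0.172 in CompE, with 13 and 19 above 0, where 47.0% and 48.2% of all genes were.

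Scd1 rose from 78.4, 82.6, 144 and 64.6 RPM in the P0 DMSO libraries to 547, 1065 and 726 RPM at P6. Its log2 fold change of 3.15 (SE 0.291, adjusted p = 8.31e-06) was the largest of the 33, and no library overlapped. In CompE, where the P0 level was already 470 to 545 RPM, the change was 1.27 (SE 0.278, adjusted p = 0.00572). That call was lost when any single CompE library other than P6 replicate 3 was left out, with the log2 fold change then between 1.08 and 1.33. Exact two-sided permutation tests gave p = 0.0571 for both treatments, the smallest that 3 against 4 allows.

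Elovl5 went from 125, 110, 105 and 111 RPM to 233, 204 and 238 RPM in DMSO, a log2 fold change of 1.07 (SE 0.122, adjusted p = 4.84e-05), and in CompE it changed by 1.60 (SE 0.122, adjusted p = 1.70e-06). It was called without any one library in either treatment. Fads2 rose in DMSO from 43.1, 49.5, 32.3 and 42.5 RPM to 106, 85.3 and 88.3 RPM, by 1.22 (SE 0.208, adjusted p = 0.00109). In CompE it changed by 0.72 (SE 0.209, adjusted p = 0.0248), short of 2-fold. Its neighbor Fads1, the Δ5 desaturase of the same route, went the other way, at −0.71 (SE 0.255, adjusted p = 0.0612) in DMSO and −0.75 (SE 0.256, adjusted p = 0.0507) in CompE.

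Hsd17b7, which reduces the C3 ketone of sterol intermediates and also acts on estrone, was at 54.7, 51.8, 91.7 and 80.1 RPM in DMSO at P0 and at 363, 88.8 and 300 RPM at P6. The P6 libraries were spread over 4-fold, and the lowest of them, replicate 2, fell inside the P0 range. The log2 fold change was 1.90 (SE 0.390, adjusted p = 0.00377), and the call was lost when P0 replicate 1, 2 or 4 or P6 replicate 1 or 3 of the DMSO libraries was left out, or when the 7 DMSO libraries were fitted alone, with adjusted p from 0.0102 to 0.0191. With CompE it rose from 52.7, 62.4, 76.5 and 49.7 RPM to 221, 169 and 403 RPM, without overlap, by 2.25 (SE 0.393, adjusted p = 0.00142).

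Several other genes of the pathway fell short of the call. Cyp51, the lanosterol demethylase, was at −0.74 in DMSO (SE 0.114, adjusted p = 0.000584) and −0.49 in CompE (SE 0.114, adjusted p = 0.00811), both less than 2-fold, and 166 of its 4415 exon bases overlap Akap9 on the other strand. Dhcr7, which catalyzes the last step to cholesterol, changed by −1.13 in DMSO (SE 0.279, adjusted p = 0.0106), just outside the threshold of 0.01. Insig1 was close by at −1.21 (SE 0.306, adjusted p = 0.0119), with P6 values of 28.8, 10.5 and 16.1 RPM, all below the 4 P0 values. It was called without P0 DMSO replicate 2 or P6 DMSO replicate 1, with DESeq2 and with no filter on low counts, with adjusted p from 0.000966 to 0.0093. Fasn was at 0.90 (SE 0.235, adjusted p = 0.0142), with P6 values of 605, 388 and 405 RPM above all P0 values, and it was called without P0 DMSO replicate 2 (1.11, adjusted p = 0.00498). Insig2 was higher, at 0.50 (SE 0.121, adjusted p = 0.00931) in DMSO and 0.77 (SE 0.121, adjusted p = 0.000679) in CompE. Hmgcs1, Sqle, Srebf1, Srebf2 and Scd2 had adjusted p-values of at least 0.131 in both treatments. When both libraries of P6 replicate 3 were left out of the joint fit the same 4 and 3 genes were called, with Hsd17b7 in DMSO at an adjusted p of 0.00828 and Scd1 at log2 fold changes of 3.25 in DMSO and 1.38 in CompE.

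**Figure D4:**
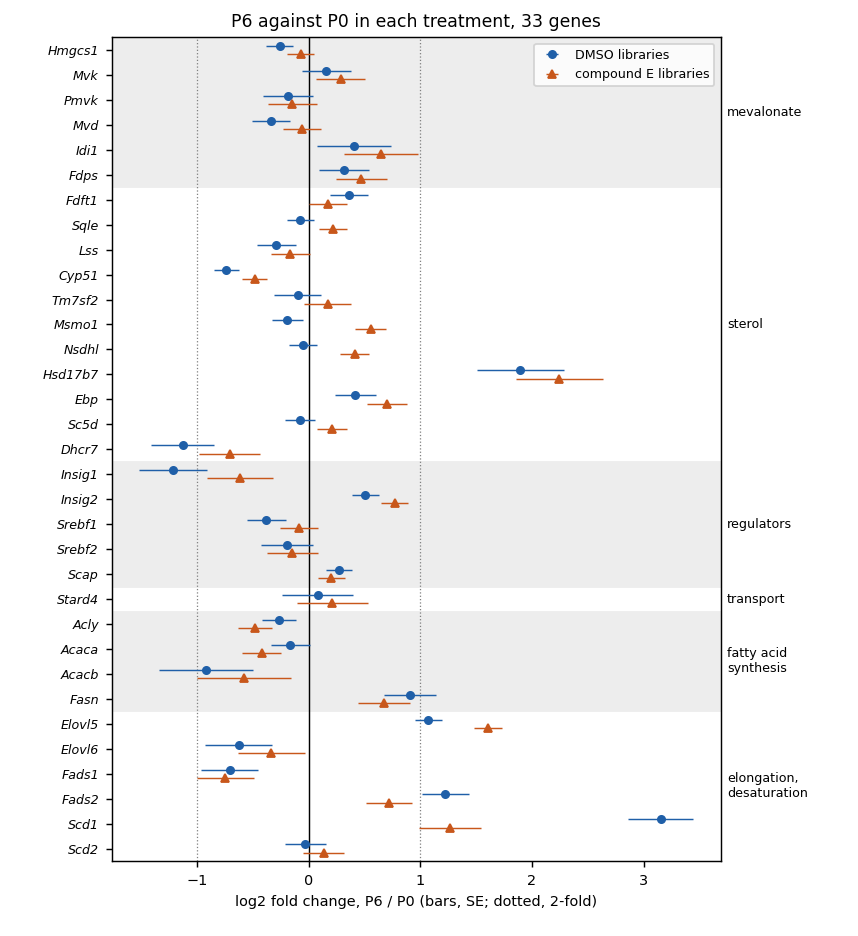
Log2 fold change of P6 against P0 for the 33 genes in DMSO libraries (blue circles) and CompE libraries (orange triangles), with SE as bars and dotted lines at 2-fold. Scd1 reaches 3.15 in DMSO and 1.27 in CompE, and Hsd17b7 and Elovl5 lie beyond the 2-fold line in both treatments.

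Markers of SCs and of other cells also differed between the ages. In DMSO the SC markers Sox2 (−1.37) and Jag1 (−1.74), the HC markers Atoh1 (−2.97) and Ccer2 (−4.03) and the glial marker Egr2 (−2.68) were called lower at P6. The SC markers Gjb2 (1.12) and Gjb6 (1.83) were called higher. Of all genes tested, 7.12% were called in either direction. Among the 5 glial markers tested, 3 were above 0, with a median of 0.073. None of the 5 macrophage markers was called, and all 5 were above 0, with a median of 1.875. The 4 endothelial markers were likewise all above 0 and not called, with a median of 1.203. The 6 mesenchymal markers summed to 916 to 1090 RPM at P0 and 884 to 3976 RPM at P6, and the 6 glial markers to 369 to 562 RPM and 380 to 499 RPM. Both of these sums overlapped between the ages. The part of the markers in the age differences was not tested. Adipocyte markers reached at most 0.576 RPM at either age.

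Genes of 1 pathway can also be compared through their variation among libraries of a single group. After the group mean was subtracted from log2 RPM, the 17 mevalonate and sterol enzymes had a median pairwise correlation of 0.356 over the 14 libraries, and 83.1% of their pairs were positive. For the 10 genes of fatty acid synthesis, elongation and desaturation the median was −0.0137 with 48.9% positive, and for an evenly spaced sample of 2951 genes tested at both ages it was 0.0311 with 52.7% positive. These values are descriptions, since all genes of a library share its depth, its cells and its preparation. P0 DMSO replicate 1 was the clearest case, where 16 of the 17 sterol enzymes lay above the group mean, by a median of 0.282 on the log2 scale. The median of all genes in that library lay at 0.094, and the fatty acid genes were split, with 5 of 10 above.

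The promoters of the sterol enzymes were examined for shared letters, and a link to the variation among libraries was not tested. RefSeq promoter windows on GRCm38.p6 were matched for 26 of the 33 genes, with 34 start sites, and for 14 of the 17 mevalonate and sterol enzymes. Both strands of the 250 bases before each start were searched. The letters CCAAT, bound by NF-Y, were present in 14 of these 14 and in 21 of all 26, while 37.5% of the 27025 genes in the table had them. The GC box GGGCGG, bound by SP1, was in 13 of the 14 against 35.4% of genes. A form of the sterol regulatory element, TCACNCCAC, was in Hmgcs1 alone of the 26, against 1.22% of genes. The E-box CACGTG was in 6 of 26 against 6.86%, and GTGGGAA, the motif of the Notch effector RBPJ, in 3 of 26 (Hmgcs1, Nsdhl and Sc5d) against 6.18%. A match describes letters and shows no binding, and genes with several starts had more bases to match. Some windows also lay in annotated exons. These covered all 250 bases for Tm7sf2, for Idi1 and for the Dhcr7 window that held CCAAT, and 214 bases for Msmo1.

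The windows of 4 genes are printed 5′ to 3′ on the gene's strand, with matches to TCACNCCAC, CCAAT and CACGTG on either strand in capitals (CCAAT on the other strand reads ATTGG). Hmgcs1 is shown as the member with a sterol element, Fasn for its 3 CCAAT matches, Srebf1 as the regulator lower in all 7 pairs, and Mlxipl, a regulator of lipogenesis outside the 33 genes, as one called lower at P0. Other windows held as many CCAAT matches as Fasn or more, such as Msmo1 with 3 and Mvk with 5.
Hmgcs1 (chr13:119690101-119690350, plus strand): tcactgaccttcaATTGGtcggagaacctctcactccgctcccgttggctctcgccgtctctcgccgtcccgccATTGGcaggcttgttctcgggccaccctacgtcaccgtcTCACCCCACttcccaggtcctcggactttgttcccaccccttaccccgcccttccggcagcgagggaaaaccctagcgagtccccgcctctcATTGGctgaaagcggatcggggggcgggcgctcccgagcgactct
Fasn (chr11:120824548-120824797, minus strand): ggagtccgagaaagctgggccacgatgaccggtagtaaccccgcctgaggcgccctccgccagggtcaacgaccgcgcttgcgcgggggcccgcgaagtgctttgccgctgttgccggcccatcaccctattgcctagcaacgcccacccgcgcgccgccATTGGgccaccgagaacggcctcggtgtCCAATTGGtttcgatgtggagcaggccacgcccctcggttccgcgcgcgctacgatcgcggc
Srebf1 (chr11:60222582-60222831, minus strand, the most upstream of its 3 starts): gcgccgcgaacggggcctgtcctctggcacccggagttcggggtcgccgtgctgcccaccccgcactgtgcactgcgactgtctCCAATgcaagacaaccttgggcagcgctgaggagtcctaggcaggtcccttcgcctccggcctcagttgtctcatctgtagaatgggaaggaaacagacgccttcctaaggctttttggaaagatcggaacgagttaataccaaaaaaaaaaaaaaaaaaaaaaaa
Mlxipl (chr5:135089640-135089889, plus strand): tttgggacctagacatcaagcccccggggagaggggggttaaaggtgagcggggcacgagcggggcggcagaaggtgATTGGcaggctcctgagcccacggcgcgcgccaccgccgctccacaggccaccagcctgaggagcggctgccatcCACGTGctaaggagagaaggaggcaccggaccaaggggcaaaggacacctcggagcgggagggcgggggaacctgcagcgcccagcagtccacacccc
In Hmgcs1 the sterol element begins 137 bases before the start, between CCAAT matches at 237, 176 and 45 bases. In Fasn CCAAT matches begin 90, 62 and 59 bases before the start, and the last of these overlaps its neighbor. The Mlxipl window holds an E-box 98 bases and a CCAAT match 173 bases before the start, and another start of that gene has a TCACNCCAC match.

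Genes around the listed pathway were counted in the same fits. At P0 none of 12 further sterol genes, none of 16 fatty acid oxidation genes, none of the 11 sterol efflux and liver X receptor genes tested and 2 of the 28 further fatty acid genes tested were called. The 2 were Mlxipl and Dgat2, both lower, where 0.985% of all genes were called lower. Mlxipl, which encodes the glucose-sensing activator of lipogenesis ChREBP, had 3.20, 2.58, 3.50 and 3.79 RPM with CompE and 9.69, 8.24, 11.4 and 10.7 RPM with DMSO. It fell, with a log2 fold change of −1.65 (SE 0.204, adjusted p = 0.00197), or −1.66 with the replicate block, and 235 of its 5538 exon bases overlap a gene on the other strand. Dgat2, which completes triglyceride synthesis, had 5.45, 13.9, 9.65 and 11.2 RPM with CompE and 51.5, 64.8, 69.7 and 63.4 RPM with DMSO. Its log2 fold change was −2.68 (SE 0.282, adjusted p = 0.000904), or −2.74 with the block. Neither gene's groups overlapped, and both fell in each of the 4 pairs. Both calls were lost without both libraries of replicate 3 or of replicate 4, and that of Mlxipl also without both of replicate 2 or CompE replicate 3, with adjusted p from 0.0109 to 0.0352. Over all genes 44 were called without both libraries of replicate 3, 1 without both of replicate 4, 69 without both of replicate 2 and 80 without CompE replicate 3.

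Ch25h, which makes 25-hydroxycholesterol, had a log2 fold change of 2.75 (SE 0.559, adjusted p = 0.0241) at P0 and was not called. With the replicate block, where 2.2% of all genes were called, it was (2.87, SE 0.413, adjusted p = 0.00485), as it was with the batch block, with DESeq2 and without DMSO replicate 1. Its counts were low, with 3.98, 1.80, 2.36 and 4.51 RPM with CompE and 1.02, 0.125, 0.413 and 0.329 RPM with DMSO, and 159 of its 1387 exon bases overlap a gene on the other strand. At P6 none of these further lists gave a call, and Ch25h was too low to be tested. There Mlxipl was at 1.19, 1.67 and 4.15 RPM with CompE and 2.92, 1.84 and 3.45 RPM with DMSO. Dgat2 was at 26.8, 5.54 and 9.54 RPM against 45.5, 13.0 and 8.30 RPM, and the groups of both genes overlapped.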

How the data were processed

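Per the labels, RNA of sorted SCs was made into full-length cDNA libraries without molecular identifiers. The authors trimmed reads (Trim Galore 0.6.0 and cutadapt 1.15 in the submitters' processing notes), mapped them with STAR (2.7.0f in those notes) to GRCm38 and deposited raw counts per gene symbol, unfiltered. The annotation release, strand setting and treatment of multiply mapped reads are not given in the sources used here. Between replicates of a group, chi-square over genes was 20.5 or more times its degrees of freedom, so none was a repeat of another. The labels do not say that replicates came from separate animals, so p-values measure the spread between these libraries.

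Counts were fitted with edgeR 4.0.16 (R 4.3.3; TMM, filterByExpr at a minimum count of 10, glmQLFit, glmQLFTest), each age alone or all 14 libraries for the interaction and the age contrasts, with Benjamini-Hochberg adjustment over all genes tested. DESeq2 1.42.0 was an alternative. RPM are counts per 1000000 counted reads, and RPKM also divide by the union of GENCODE exons. Exact permutation tests used scipy 1.17.1. Counting error is small beside the spread between libraries at these depths, except for genes with few reads, such as Ch25h at P6. Replicate numbers follow the batches (P0 replicates 3 and 4 share one). Deviations from group means correlated by 0.175 to 0.509 within the 4 P0 pairs and 0.278 to 0.632 within the 3 P6 pairs, so the numbers were treated as pairs. On simulated counts with 200 changed genes, edgeR recovered 23% and 74% of genes changed by log2 1 and 2 at P0, and 1% and 50% at P6.

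The pathway, its members, the gene lists and the tests were chosen with earlier results of these data known, though membership itself went by gene name. Given in full were genes called at P0 or P6, with or without the block, members called in an age contrast, Srebf1, Srebf2, Insig1, Hmgcs1, Sqle, Fasn, Scd1 and Scd2. Others (Msmo1, Fdft1, Nsdhl, Cyp51, Dhcr7, Insig2, Fads1, Acads and those that give the ends of a range) were chosen after their values were seen. Alternatives were DESeq2, its size factors, no filter, replicate or batch blocks, a threshold of 0.05, the 7 libraries of a treatment alone for the age contrasts, and leaving out libraries. Leaving out P6 replicate 3 in the contrasts across ages and with the block was chosen after seeing the data. Further sums of the marker lists for neurons, endothelium and erythroid cells are in the closing section.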

Additional observations from a re-analysis of the deposited data

Results flagged for a closer look

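In 6 of 72 groups of 4 P0 libraries examined, 1 library lay far from the other 3 by Dixon's criterion, where chance gives about 3.6. CompE replicate 1 was high for Mvk, at 11.1 RPM against 7.58 to 8.09 RPM, for Pmvk, at 26.2 RPM against 15.7 to 16.9 RPM, and for Fads2, at 53.3 RPM against 27.3 to 29.9 RPM. DMSO replicate 1 was high for Idi1, at 3.25 RPM against 2.18 to 2.20 RPM, and for Srebf1, at 282 RPM against 191 to 200 RPM. CompE replicate 2 was high for Elovl6, at 27.9 RPM against 23.5 to 24.1 RPM. Of the 6, 5 were in the 2 libraries of batch 1. Without DMSO replicate 1, Srebf1 was still lower with compound E, by −0.498 on the log2 scale.

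The responses of 2 genes to compound E differed between the ages at an adjusted p of at most 0.05 in the fit with the replicate block. For Scd1 the log2 fold change at P6 minus that at P0 was −1.917 (adjusted p = 0.0165). For Dgat2 it was 2.169 (adjusted p = 0.0362). Without the block neither passed, with adjusted p-values of 0.255 for Scd1 and 0.924 for Dgat2.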

How the results depend on the processing

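The count of genes called among the 33 at P0 was 1 in all alternatives but 3: it was 0 without both libraries of replicate 2 or of replicate 4 (range 0 to 1 over the libraries left out) and 2 with 0.05 as the limit and any fold allowed. At P6 it stayed at 0, and for the difference between the ages it was 0, and 1 with DESeq2. In the age contrasts it was 9 (DMSO) and 10 (CompE) under that looser limit, and 3 to 5 and 2 to 4 when single libraries were left out. The fit with the replicate block, as a check of the pairing, gave 1 called gene at P0, 0 at P6 and 0 for the difference between ages, and changed no call among the 33. Outside them Ch25h, Hes5, Lfng, Jag1, Atoh1 and Pou4f3 were called at P0 with the block and not without it. The count of all genes called at P0 was 195, and 350 with the replicate block, 334 with the batch block and 443 with DESeq2. At P6 it was 0, and 13 with DESeq2, and for the difference between ages 0, 16 with the replicate block and 33 with DESeq2.

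Log2 fold changes near 0 changed sign when libraries were left out: at P0 Scd2 (−0.082 to 0.156), Insig1 (−0.133 to 0.291), Sqle (−0.048 to 0.114) and Fasn (−0.341 to 0.172), at P6 Srebf2 (−0.397 to 0.105), Hmgcs1 (−0.009 to 0.229), Hsd17b7 (−0.314 to 0.58), Mlxipl (−0.876 to 0.147) and Dgat2 (−1.555 to 0.38). In the age contrasts these were Scd2 (−0.182 to 0.076) and Sqle (−0.209 to 0.024; 0.022 without P6 DMSO replicate 3) in DMSO, and Srebf1 (−0.182 to 0.018; 0.013 without P6 CompE replicate 3), Srebf2 (−0.28 to 0.017) and Dgat2 (−0.294 to 0.957) in CompE. Without both P6 replicate 3 libraries, an alternative chosen after seeing the data, the difference between ages was −0.183 for Srebf2 and 2.606 for Ch25h, both of opposite sign to the fit with all libraries, and the age change was 0.027 for Scd2 and 0.024 for Sqle in DMSO and 0.018 for Srebf1 in CompE. The cause was not tested. In P6 replicates 1 and 2 Ch25h was at 0.318 and 0 RPM with CompE and at 0 and 0 RPM with DMSO, so its sign there rests on few reads. For genes with more reads the precision at these depths is set by the spread between libraries.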

Other observations

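Genes of fatty acid oxidation gave calls between the ages, where none of them was called with compound E at either age. Of 16 oxidation genes, 13 were above 0 in log2 fold change at P6 against P0 in DMSO and 15 in CompE, with medians of 0.402 and 0.462, where 47.0% and 48.2% of all genes were above 0. In each treatment 2 of the 16 were called, where 7.12% and 6.43% of all genes were. Hadhb, a subunit of the mitochondrial trifunctional protein, was called higher in both, at 1.56 (SE 0.126, adjusted p = 2.36e-06) in DMSO and 1.67 (SE 0.126, adjusted p = 1.54e-06) in CompE. Pdk4, which restrains pyruvate oxidation, was called at 1.78 (SE 0.324, adjusted p = 0.00174) and 1.87 (SE 0.323, adjusted p = 0.0013). Acads was the oxidation gene farthest below 0, at −0.86 (SE 0.227, adjusted p = 0.0149) and −0.68.

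Soat1, which esterifies cholesterol for storage, was higher at P6 by 2.98 (SE 0.359, adjusted p = 8.07e-05) in DMSO and 2.91 (SE 0.357, adjusted p = 0.000108) in CompE. Without P6 replicate 3, whose macrophage markers were the highest, these were 2.53 and 2.76, and the part of macrophage RNA was not tested. Of 28 further fatty acid genes tested, 5 were called in DMSO and 2 in CompE, beside the same shares of all genes. Acsl1 and Me1, an acyl-CoA synthetase and the NADPH-producing malic enzyme, were called higher in both treatments, at 1.27 and 1.10 in DMSO and 1.80 and 1.52 in CompE. Acss2 was called higher in DMSO alone, at 2.05 (adjusted p = 0.00496), with 1.65 (adjusted p = 0.0157) in CompE. Lpin1, at −1.25, and Mlxipl, at −1.81, were called lower in DMSO. The difference between these age changes in DMSO and CompE was tested, and no gene named here passed, with or without the replicate block.

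Of the remaining marker sums, the 4 neuronal markers came to 44.3 to 97.3 RPM with DMSO and 51.5 to 110 RPM with CompE at P0. The 4 endothelial markers summed to at most 44.3 RPM in any library, and the 4 erythroid markers to at most 7.15 RPM.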
